A study of Homo sapiens with 6 samples.

Results

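The 10 genes described here, GATA2, GATA3, TFAP2A, TFAP2C, ISL1, HAND1, CDX2, GABRP, VTCN1 and TP63, mark and regulate amnion and trophoblast, and they were taken by symbol from a table of read counts with 61155 gene symbols. Of the 10 members, 4 had enough reads to be tested among 19521 genes. The table compares bulk RNA sequencing of H7 human embryonic stem cells (hESCs), an established line, in 3 wild-type (WT) libraries and 3 S6K1-/- libraries. S6K1 is the kinase that mTOR activates to raise translation and cell growth, and the S6K1-/- cells are clone #1, 1 CRISPR/Cas9 clone cut at exons 9 and 11 of RPS6KB1. Cells of both groups grew without feeders on Matrigel in TeSR-E8 medium and had not been differentiated by the methods of the study, although the sample labels give week 5 and the word knockdown. A single clone was compared, so the genotype and the history of that clone cannot be told apart, and no source says whether the 3 libraries of a group are separate cultures, so p-values measure the spread between these libraries. Library totals lay between 21896698 and 24473013 counts. RPS6KB1 itself fell by 0.75 on the log2 scale (SE 0.057, adjusted p = 2.52e-07, edgeR's quasi-likelihood test), from 33.2 ± 0.992 to 19.7 ± 0.371 CPM (counts scaled to a fixed library size, mean ± SD, n = 3). The pluripotency factors POU5F1, NANOG and SOX2 were counted in both groups at 177 to 300.2 CPM on average, with log2 fold changes of -0.04, 0.05 and -0.04 that did not pass the test.

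Amnion and trophoblast are the extra-embryonic epithelia that surround the embryo, and hESCs exposed to BMP4 switch on the regulators of both. GATA2, GATA3, TFAP2A and TFAP2C form the core of the trophoblast program: the GATA factors are zinc-finger proteins that bind GATA motifs, and the TFAP2 factors (AP-2) bind palindromic GC-rich motifs. TFAP2A, ISL1 and HAND1 are also early amnion regulators, GABRP and VTCN1 are surface proteins by which amnion is recognised, CDX2 acts in early trophectoderm, and TP63 maintains the proliferative cytotrophoblast and stratified epithelia.

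The stretches just upstream of a RefSeq start of 3 members are shown because these genes stand for the states found here: GATA2 rose in S6K1-/- cells, GABRP was counted in both groups without passing the test, and HAND1 had no read. The sequences are from RefSeq on GRCh38.p14, given 5′ to 3′ on the strand of the gene, with CpG dinucleotides in capitals. The GATA2 stretch, from the outermost of its starts, is chr3:128493202-128493451 on the minus strand, the GABRP stretch is chr5:170783475-170783690 on the plus strand and ends before the exon annotated there, and the HAND1 stretch is chr5:154478228-154478477 on the minus strand.
GATA2: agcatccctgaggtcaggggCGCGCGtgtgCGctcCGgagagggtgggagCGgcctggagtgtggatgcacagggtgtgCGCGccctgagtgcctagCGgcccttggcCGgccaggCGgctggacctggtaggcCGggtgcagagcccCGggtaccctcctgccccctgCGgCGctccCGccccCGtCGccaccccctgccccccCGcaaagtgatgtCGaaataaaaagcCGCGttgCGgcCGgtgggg
GABRP: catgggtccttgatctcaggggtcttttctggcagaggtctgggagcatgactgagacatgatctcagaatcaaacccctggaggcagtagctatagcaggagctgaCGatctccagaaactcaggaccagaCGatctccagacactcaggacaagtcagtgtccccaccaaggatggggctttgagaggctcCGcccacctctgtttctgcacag
HAND1: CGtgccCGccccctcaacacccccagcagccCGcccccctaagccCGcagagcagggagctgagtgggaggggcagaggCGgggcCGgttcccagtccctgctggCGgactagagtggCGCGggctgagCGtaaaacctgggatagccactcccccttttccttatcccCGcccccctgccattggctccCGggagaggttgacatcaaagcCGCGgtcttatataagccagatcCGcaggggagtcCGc
In the GENCODE annotation the GABRP stretch lies inside the gene, since other transcripts of GABRP begin further upstream, while the GATA2 and HAND1 stretches end at the outer start of their gene. The GATA2 stretch holds 24 CpG, more than 76.3% of the 35116 promoters compared over 250 bases. The HAND1 stretch holds 16 CpG, more than 59.0% of promoters, and GABRP holds 3, more than 22.9%. A relation of CpG content to level was not tested. RefSeq starts were matched for 9 of the 10 members, at 16 starts in all, and not for TFAP2C. The AP-2 motif GCCNNNGGC, which reads the same on both strands, occurred in 7 of these 16 stretches, 1 each at the GATA2 start shown and at HAND1 among them, and in 19.8% of all promoters of that length. The GATA motif AGATAA occurred on either strand in 2 of the 16, at CDX2 and ISL1, against 9.17% of all promoters. These are letter matches only, and the 16 starts share members, with 6 of them at GATA3.

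GATA2 and TFAP2C rose in S6K1-/- cells. GATA2, whose gene spans chr3:128479427-128493201 on the minus strand of GRCh38, had 84, 76 and 75 reads in WT and 140, 141 and 131 in S6K1-/- cells, library by library. Every S6K1-/- library was above every WT library, and the S6K1-/- values differed little from each other. Scaled to library size, the GATA2 level went from 3.25 ± 0.181 to 5.95 ± 0.0648 CPM (SD, n = 3), a log2 fold change of 0.87 (SE 0.111, 95% confidence interval 0.632 to 1.11, adjusted p = 6.39e-05, edgeR's quasi-likelihood test), or 1.83-fold. TFAP2C, at chr20:56629306-56639283 on the plus strand, encodes AP-2 gamma, which acts in trophoblast, in primordial germ cells and in naive pluripotent cells. It had 949, 1048 and 992 reads in WT and 1280, 1278 and 1183 in S6K1-/- libraries, again without overlap. Its level went from 41.4 ± 2.13 to 54.0 ± 0.614 CPM, a log2 fold change of 0.38 (SE 0.0491, interval 0.279 to 0.489, adjusted p = 6.39e-05, same test), or 1.31-fold. In bulk libraries, a change in the number of cells that express a gene and a change in RNA per cell cannot be told apart. Of the 4 members tested, 2 were therefore higher past the adjusted p of 0.001 that the study used and none lower, where 3.96% of all genes tested passed, 1.42% as higher and 2.54% as lower. Groups without overlap are common in these data, since 14.0% of all genes tested had every S6K1-/- library above every WT library. GATA2 and TFAP2C ranked 142nd and 143rd by p among the 278 genes called higher, in the middle of that list. Both stayed past the threshold in each of the 11 alternative fits that kept the threshold, with adjusted p up to 0.000573 for GATA2 and 0.00068 for TFAP2C, and both are shown with their intervals in the plot of fold change against level.

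**Figure D1:**
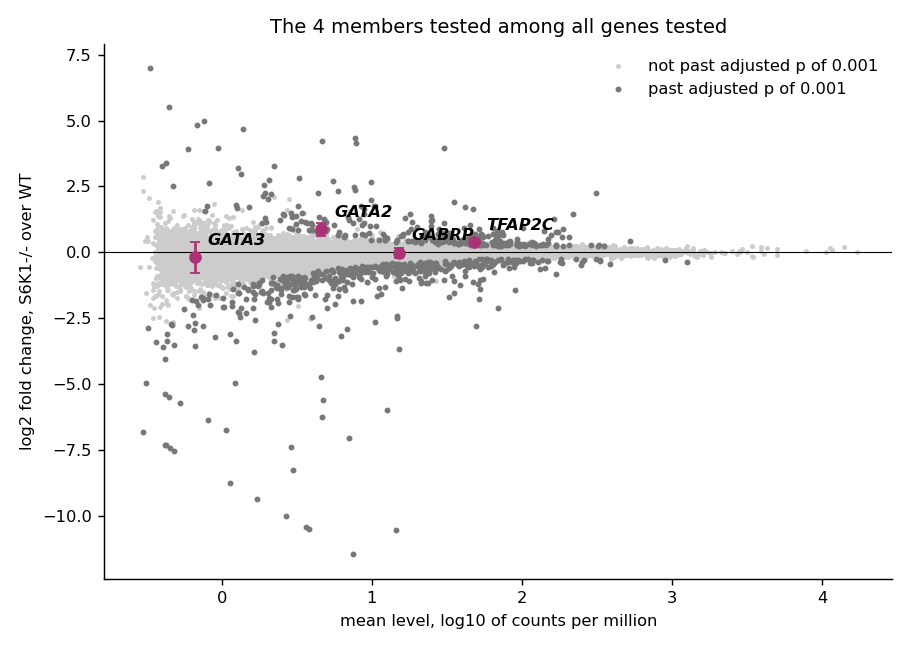
Log2 fold change of S6K1-/- over WT (y axis) against the mean level (x axis, log10 of CPM) for the 19521 genes tested, 1 point per gene, with genes past an adjusted p of 0.001 in dark grey and the 4 tested members in magenta with 95% confidence intervals. The intervals of GATA2 (0.632 to 1.11) and TFAP2C (0.279 to 0.489) lie above 0, and those of GABRP and GATA3 cross it.

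The ratio of the 2 genes did not overlap between the groups. GATA2 had 88.5, 72.5 and 75.6 reads for every 1000 TFAP2C reads in WT libraries and 109, 110 and 111 in S6K1-/- libraries. The mean ratio was 78.9 ± 8.49 in WT and 110 ± 0.698 in S6K1-/- cells. Without overlap the two-sided exact permutation p is fixed at 0.1, the smallest that 3 libraries against 3 allow. The ratio restates the fold changes of the 2 genes, and how many other gene pairs fail to overlap was not counted. With 131 to 141 GATA2 reads per S6K1-/- library, the small SD of that group lies under the counting error.

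GABRP and GATA3 were measured in both groups and did not pass the test. GABRP, a subunit of GABA-A receptors at chr5:170763350-170814047, had 352, 359 and 391 reads in WT and 374, 326 and 338 in S6K1-/- libraries, which overlapped. Its log2 fold change of -0.03 had an interval of -0.202 to 0.15 (adjusted p = 0.884, edgeR's quasi-likelihood test), at 15.3 ± 1.33 and 15 ± 1.23 CPM. GATA3, the other GATA factor of trophoblast, at chr10:8045378-8075198, had 16, 21 and 14 reads in WT and 16, 14 and 13 in S6K1-/- libraries. Its log2 fold change of -0.18 had an interval of -0.767 to 0.4 (adjusted p = 0.748, same test), wide enough that changes of a size like that of TFAP2C in either direction could not be detected at this depth.

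The other 6 members had 14 reads or fewer in every library and stayed under the filter of 0.418 CPM in at least 3 libraries. TFAP2A, AP-2 alpha, at chr6:10393186-10419659, had 7, 12 and 14 reads in WT and 8, 5 and 9 in S6K1-/- libraries, which overlapped. Without the filter its log2 fold change was -0.52 with an interval of -1.32 to 0.283 (adjusted p = 0.595, edgeR's quasi-likelihood test). VTCN1, a B7 family protein that restrains T cells, at chr1:117143587-117210960, had 5, 1 and 2 reads in WT and 0, 3 and 1 in S6K1-/- libraries. The remaining 4 were at the limit of detection. ISL1, a LIM homeodomain factor at chr5:51383448-51394730, had 3, 0 and 2 reads in WT and 0, 1 and 2 in S6K1-/- libraries. CDX2, a caudal-type homeodomain factor at chr13:27960918-27969315, had 1 read over all WT libraries, and 1, 2 and 1 reads in S6K1-/- cells. TP63, at chr3:189631389-189897276, had 2 reads in WT library 1 and 4 in S6K1-/- library 1 and was at 0 in the other libraries. HAND1, a basic helix-loop-helix factor at chr5:154474972-154478227, had 0 reads in all 6 libraries, which allows up to 3 counts or 0.122 to 0.138 CPM in a library. No fold is given for ISL1, CDX2 and HAND1, whose libraries were all at or under 3 counts, and the counts of all members are drawn in the plot of reads per library.

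**Figure D2:**
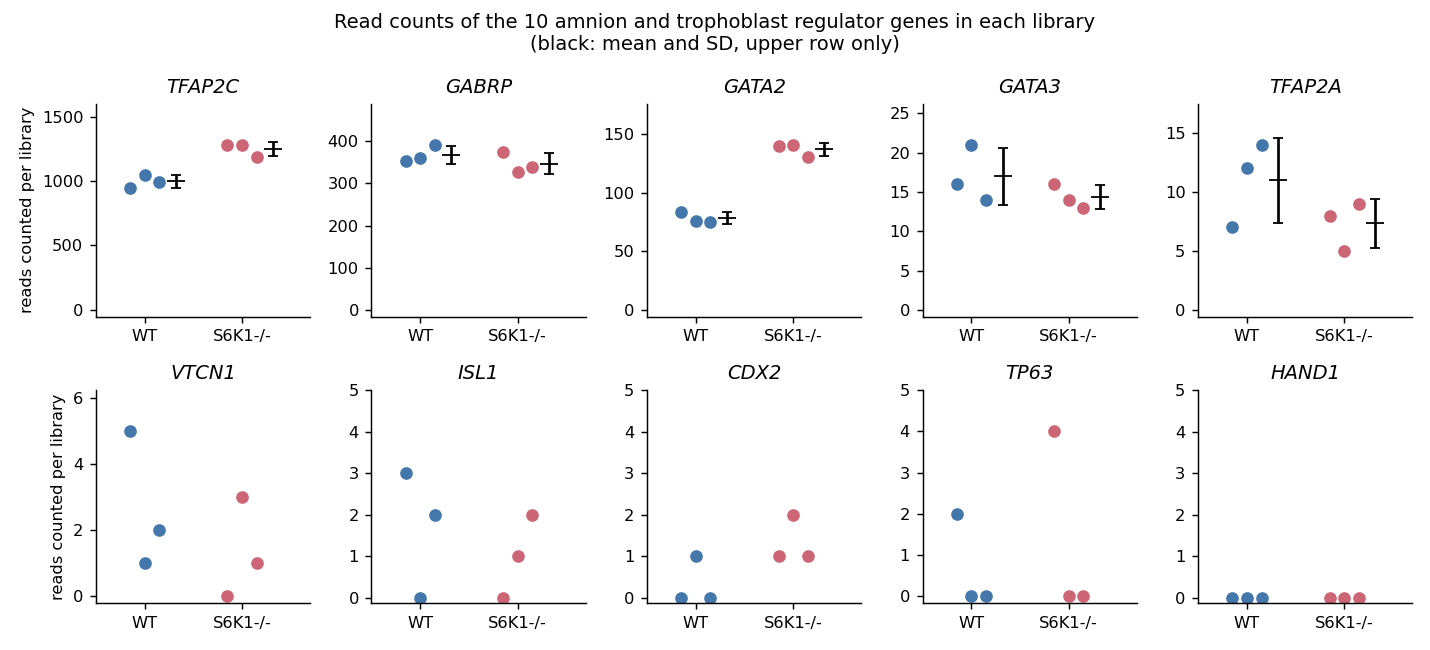
Reads counted in each library (y axis, not scaled to library size, with its own range for each gene) for the 10 members in WT (blue) and S6K1-/- (red) libraries, 1 point per library, with mean and SD in black in the upper row. TFAP2C and GATA2 separate the groups, GABRP, GATA3 and TFAP2A overlap, and the lower row holds 5 reads or fewer per library.

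Per length, the members were far apart from each other. TFAP2C was the highest, at 13.8 ± 0.709 CPM per kilobase of exon in WT and 18 ± 0.205 in S6K1-/- cells. GABRP followed at 3.31 ± 0.288 and 3.25 ± 0.267, then GATA2 at 0.662 ± 0.0368 and 1.21 ± 0.0132, and GATA3 at 0.207 ± 0.0389 and 0.183 ± 0.0155 CPM per kilobase. From TFAP2C down to TFAP2A, at 0.0558 ± 0.0194 and 0.039 ± 0.0126, no library of a gene overlapped one of its neighbour in this order, in either group. Below TFAP2A, the levels of VTCN1, ISL1, CDX2 and TP63 did not exceed 0.0365 CPM per kilobase on average and their libraries overlapped. The order of the first 5 members was thus shared by WT and S6K1-/- cells, and these 5 kept that order with the longest transcript in place of all exons.

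Within their families, the members that rose were not the only ones counted. Of the 6 GATA genes 4 were tested, and GATA5, an endoderm and heart factor, was the highest in WT cells at 1.21 ± 0.178 CPM per kilobase, against 0.97 ± 0.197 in S6K1-/- cells (log2 fold change -0.32, adjusted p = 0.255). GATA4 had a log2 fold change of -0.64 (adjusted p = 0.0894), so that GATA2 was the only GATA gene past the threshold of edgeR's quasi-likelihood test. TFAP2C held nearly all of the TFAP2 family reads, as TFAP2E stood at 0.242 and 0.24 CPM per kilobase (log2 fold change -0.02, adjusted p = 0.977) and TFAP2B and TFAP2D were at 0. Of the CDX family only CDX4 was tested. It had 26, 35 and 27 reads in WT and 68, 59 and 61 in S6K1-/- libraries, and it rose by 1.15 on the log2 scale (SE 0.177, adjusted p = 0.000356). That call was lost without WT library 1 or 3 or S6K1-/- library 1 or 3 (adjusted p = 0.00251, 0.00297, 0.00242 and 0.00239) and with the replicate number as a block (adjusted p = 0.00151).

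Relatives of the other members were also read. LMX1B, a LIM homeodomain gene like ISL1, had 232, 242 and 226 reads in WT and 349, 359 and 310 in S6K1-/- libraries, and rose by 0.60 (SE 0.0716, adjusted p = 3.25e-05, edgeR's quasi-likelihood test). Of the 12 ISL, LHX and LMX genes 4 were tested, and the 3 besides LMX1B had log2 fold changes below 0, none past the threshold. Among 16 GABA-A receptor subunits, 11 were tested and none rose past the threshold, though GABRA5, at 0.24 (adjusted p = 0.00309), did so with no filter on low counts (0.000734). GABRA2 fell from 46, 55 and 36 reads to 11, 11 and 10 (log2 fold change -2.02, SE 0.242, adjusted p = 3.33e-05). GABRA3 went from 225, 243 and 196 to 148, 148 and 132 reads (log2 fold change -0.57, adjusted p = 0.000591), a call lost on leaving out any 1 of the 6 libraries (adjusted p = 0.00107 to 0.00442) and with the replicate block (0.00151). GABRP was near GABRQ in level, which stood at 3.35 ± 0.131 and 3.23 ± 0.203 CPM per kilobase. CD276, a B7 protein like VTCN1, was at 26.5 ± 0.599 and 28.1 ± 0.997 CPM per kilobase (adjusted p = 0.213). The plot by family sets the levels of the GATA, TFAP2, CDX and GABA-A genes named here side by side.

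**Figure D3:**
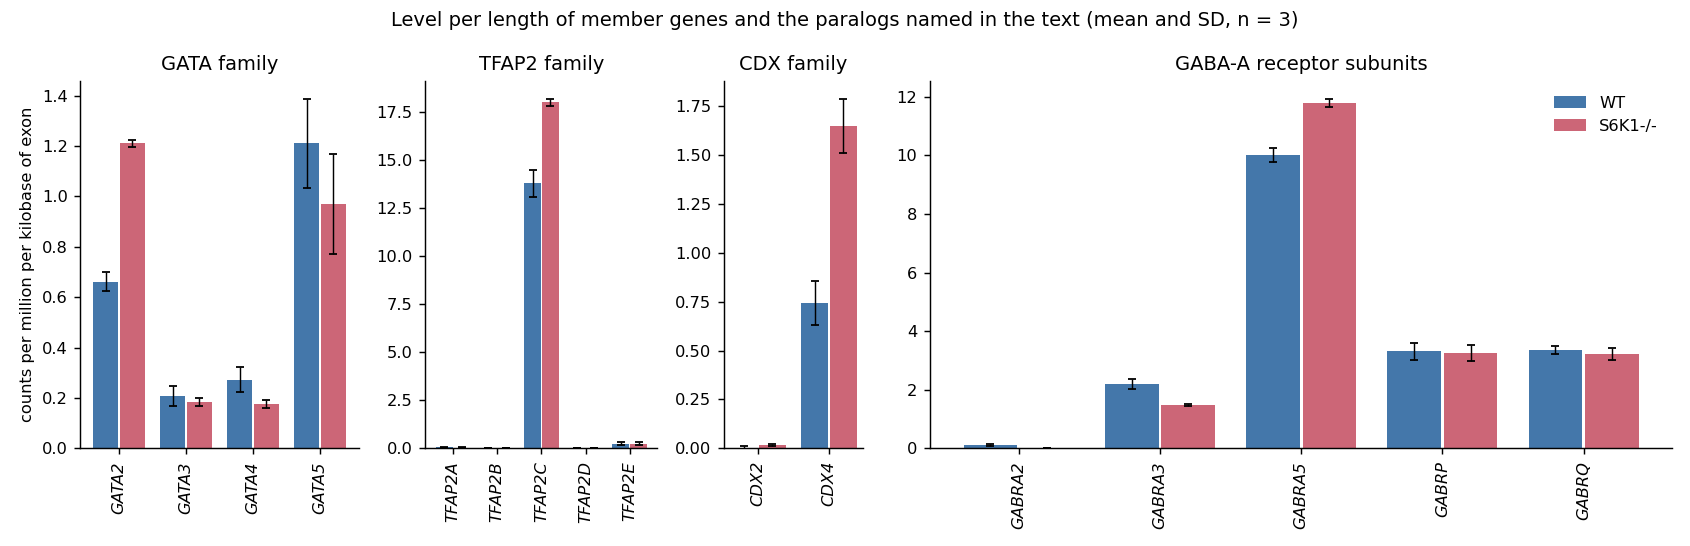
Level in CPM per kilobase of exon (y axis, linear from 0, with its own range in each panel) of named genes from 4 families in WT (blue) and S6K1-/- (red) cells, with bars for the mean and lines for the SD of 3 libraries. GATA2 and CDX4 stand well above their WT bars in S6K1-/- cells, TFAP2C holds most of the TFAP2 signal, and the GABRP bars differ by less than their SD.

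The genes whose level over the 6 libraries was most like that of GATA2 were PCDHB5, a protocadherin (Pearson r = 0.999), DCAF12L1 (r = 0.999) and CTCFL, a germline relative of CTCF (r = 0.998), out of 16805 genes averaging 1 CPM or more. For TFAP2C they were AC026191.1 (r = 0.999), LSM12 (r = 0.996) and GABRA5 (r = 0.992). These 6 libraries form only 2 groups, so that any gene with a steady difference between them reaches a high r, and the values describe likeness alone. PCDHB5, DCAF12L1 and CTCFL rose by 1.45, 2.76 and 2.24 on the log2 scale, all more than GATA2. AC026191.1, LSM12 and GABRA5 had log2 fold changes of 1.07, 0.27 and 0.24, beside 0.38 for TFAP2C.

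Near GATA2 and TFAP2C on their chromosomes, 1 tested gene in all passed the test. Of 69 tested genes within 5 Mb of GATA2 none passed the threshold in either direction, and their median log2 fold change was -0.00835. Of 38 around TFAP2C, 1 rose, with a median of 0.0257. Chromosomes 3 and 20 had 11 of 944 and 7 of 457 tested genes higher and 24 and 11 lower, both at a median of -0.0153. GATA2-AS1, on the opposite strand and overlapping GATA2, had 27, 19 and 10 reads in WT and 22, 25 and 22 in S6K1-/- libraries (log2 fold change 0.36, adjusted p = 0.4809, edgeR's quasi-likelihood test). TFAP2A-AS2, which overlaps TFAP2A, had 13, 18 and 27 reads in WT and 7, 6 and 10 in S6K1-/- libraries (log2 fold change -1.26, adjusted p = 0.03577). The strand setting of the counting is not given in the sources used here, and without strand the reads of such pairs cannot be told apart.

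In edgeR's fit of all 6 libraries by genotype alone, with the filter, no other gene of the trophoblast lists passed 0.001. With 3.96% of all genes tested past the threshold in that fit, no call among so few genes is near the background. Of 25 other trophoblast transcription factors 14 were tested and none passed the threshold, with a median log2 fold change of -0.166 against -0.00237 over all genes tested. SP6, at -0.50 (adjusted p = 0.044), and GRHL2, at 0.15 (adjusted p = 0.0513), had the smallest p, and ELF5, DLX5, VGLL1 and TFAP2B had no read in any library. Of 41 trophoblast and placental products 15 were tested and none passed, with a median of -0.187 and 14 of the 15 below 0. At an adjusted p of 0.05, 4 were lower and 1 was higher in edgeR's quasi-likelihood test. Of the 41 products, 21 had 3 reads or fewer in every library, 9 of them 0. Their summed level was 1200 to 1280 CPM in WT and 1150 to 1190 in S6K1-/- libraries, most of it KRT8 and KRT18, keratins of simple epithelia that hESCs also express. KRT7, the keratin by which trophoblast is often recognised, went the other way from GATA2, with 122, 143 and 99 reads in WT and 66, 75 and 56 in S6K1-/- libraries (log2 fold change -0.82, SE 0.143, adjusted p = 0.00103, edgeR's quasi-likelihood test). It missed the threshold narrowly, and passed it with no filter on low counts (4.3e-07), with the replicate block (0.000912), with DESeq2's Wald test (0.000802) and without WT library 3 (0.000918). ERVV-1, an endogenous retroviral envelope gene, had 4, 3 and 4 reads in WT and 14, 13 and 14 in S6K1-/- libraries (1.92, SE 0.388, adjusted p = 0.00339). It passed the threshold as higher with no filter (0.000602), and its reads may be shared with its close copy ERVV-2.

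Of 22 other amnion markers 15 were tested, none rose and 3 fell, with a median log2 fold change of -0.113, and ITGB6 and WNT6 had no read. ANXA1, a phospholipid-binding protein of epithelia, went from 52, 67 and 43 reads to 10, 19 and 16 (log2 fold change -1.78, SE 0.248, adjusted p = 0.000144, edgeR's quasi-likelihood test; adjusted p = 0.00105 without S6K1-/- library 3). KCNMA1, a potassium channel, went from 95, 105 and 115 to 47, 49 and 45 reads (-1.10, SE 0.143, adjusted p = 7.7e-05). EPAS1, the hypoxia factor HIF-2 alpha, went from 175, 179 and 162 to 112, 111 and 102 reads (-0.61, SE 0.0971, adjusted p = 0.000526). The EPAS1 call was lost without any 1 of the 6 libraries (adjusted p = 0.0021 to 0.00336), with the replicate block (0.00201) and with DESeq2's Wald test (0.00186). None of the 3 genes that fell belongs to amnion alone, and the summed level of the list was 232 to 238 CPM in WT and 226 to 227 in S6K1-/- libraries.

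BMP signalling, the input that induces these regulators in culture, was read from 24 components and targets, of which 21 were tested, 2 rose and none fell, with a median log2 fold change of 0.00747. SMAD7, an inhibitor of the pathway and of TGF-beta signalling, rose by 0.31 (SE 0.0443, adjusted p = 0.00016), and ID2, a target gene, by 0.42 (SE 0.0697, adjusted p = 0.000664), both in edgeR's quasi-likelihood test. The ID2 libraries held 426, 434 and 351 reads in WT and 529, 537 and 489 in S6K1-/- cells. SMAD7 was no longer past the threshold without WT library 1 or S6K1-/- library 2 or 3 (0.00114, 0.00134 and 0.00115). ID2 was no longer past it without WT library 1 or 3 or any S6K1-/- library (adjusted p = 0.00114 to 0.00408) or with the replicate block (0.00114). ID1, ID3 and ID4 had log2 fold changes of 0.08, 0.04 and -0.50 (adjusted p = 0.323, 0.727 and 0.0192), and BMP4 -0.11 (0.591), so that ID2 was the only ID gene past the threshold. CHRD stood at -0.80 (adjusted p = 0.0109, same test) and BMP7 at 0.16 (0.0243), and 10 of the 21 tested genes were below 0. Of 12 cofactors that bind GATA or TFAP2 proteins, 10 were tested and none passed the threshold. KCTD1, a repressor of AP-2 activity, stood at 0.25 (adjusted p = 0.0114), its relative KCTD15 at 0.19 (0.0153), and the LIM adaptors LMO4 and LMO2 at 0.17 (0.0213) and -0.78 (0.0433).

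Other cell types that carry some of the members were read in the same way. Surface ectoderm, which expresses TFAP2A, GATA3 and TP63, was given by 17 markers, with 11 tested and 1 lower, EPCAM, at -0.31 (adjusted p = 0.000176, edgeR's quasi-likelihood test), a call lost without WT library 1 or 3 or S6K1-/- library 1 or 2 (0.00103, 0.00121, 0.00233 and 0.00189). DSP, a protein of desmosomes, had the next smallest p and the other sign, at 0.28 (adjusted p = 0.00254) and 317 ± 24 against 386 ± 21.9 CPM, and it passed the threshold with no filter on low counts (3e-09), with the replicate block (0.000605) and with DESeq2's Wald test (1.15e-05). KRT5, which marks the basal layer of stratified epithelia, had no read. Primordial germ cells express TFAP2C, and of 14 of their markers 10 were tested and TFAP2C alone passed. The summed levels were 409 to 417 CPM in WT and 462 to 481 in S6K1-/- libraries. UTF1 and TFAP2C itself carry most of that difference. UTF1, a chromatin factor of pluripotent and germ cells, had the next smallest p, at 0.41 (adjusted p = 0.0017) and 95.5 ± 10 against 127 ± 13.7 CPM, a larger difference in level than that of TFAP2C. It passed the threshold with no filter (1.42e-16), with the replicate block (3.07e-05) and without WT library 2 (0.000261). CXCR4, a chemokine receptor of migrating germ cells, had the other sign, at -1.26 (adjusted p = 0.0235), and passed with no filter (0.000231), and 4 of the 10 tested markers had a log2 fold change below 0. SOX17, of the same list, had 1 read in WT and 0 in S6K1-/- libraries, and NANOS3 and DDX4 had 5 reads or fewer in every library. Of 16 hESC markers, all tested, 1 rose and 2 fell. These were PRDM14 at 0.29 (adjusted p = 0.000362), the DNA methyltransferase DNMT3B at -0.35 (4.88e-05) and OTX2, a factor of the primed epiblast and anterior brain, at -0.63 (6.03e-05). The PRDM14 call was lost without WT library 1 or 3 or S6K1-/- library 1 or 2 (0.00158, 0.00232, 0.0039 and 0.00248). The summed hESC marker level was 8150 to 8330 CPM in WT and 7700 to 7800 in S6K1-/- libraries. DNMT3B, which went from 1410 to 1100 CPM on average, carries most of that difference, and the part of this list in the rise of GATA2 and TFAP2C was not tested.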

How the data were processed

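mRNA of 6 libraries was sequenced as paired reads with a stranded kit. According to the methods, reads were trimmed with Trim Galore 0.6.5, aligned to GRCh38 with Bowtie2 2.4.5, which does not align across splice junctions, and counted per gene with featureCounts, and the authors deposited whole-number counts that are not normalized. The annotation release is not given in the sources used here. A table of the study's own comparison, with fold changes and p-values from DESeq2 1.37.4, was not used. 

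Counts were scaled by TMM and compared by genotype with edgeR 4.0.16 (quasi-likelihood F test, R 4.3.3) after filterByExpr (minimum count 10, total 15), with Benjamini-Hochberg adjustment over all genes tested and the threshold of 0.001 that the study used. Standard errors are the log2 fold change divided by the root of F. The common dispersion was 0.00216. A library's floor is 3 counts, for counting error only. Levels between genes were divided by exon length in GENCODE 44, where 36797 symbols matched directly and 668 through a RefSeq synonym. The steps were tested on simulated data.

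The members and lists were chosen with earlier results of these data known. Named are the members, the targeted gene, tested family members, overlapping neighbours, up to 4 genes per list past the threshold (the 2 of smallest p where fewer than 2 passed), and 3 genes most alike to each member past the threshold (r of log2(CPM + 0.1)). CD276 and others of the families are named by their level, and some genes of the families are not reported here. Genes named at 0 reads, KRT8, KRT18, LMO2, LMO4, CXCR4, SOX17, NANOS3, DDX4, TFCP2L1, ZFP42, POU5F1, NANOG, SOX2, BMP4, BMP7, CHRD and ID1, ID3 and ID4 were chosen after their values were seen. Alternatives were DESeq2's size factors and Wald test (DESeq2 1.42.0), other filters, a block for the replicate number, the removal of each library in turn, and a threshold of 0.05.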

Additional observations from a re-analysis of the deposited data

How the results depend on the processing

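GATA2 and TFAP2C kept their direction and passed, and GATA3 and GABRP missed, the threshold in all 11 alternatives that kept it. GATA2 ranged from 0.834 to 0.922 and TFAP2C from 0.35 to 0.413 on the log2 scale. Over all genes, 278 higher and 496 lower became 591 and 982 with no filter on low counts, and 1067 and 1622 at a threshold of 0.05. Leaving out 1 library gave 175 to 235 higher and 313 to 445 lower, with 175 and 179 higher without S6K1-/- library 1 or 2 and 313 lower without S6K1-/- library 3. Over the genes of the lists other than members, 5 higher and 8 lower became 9 higher with no filter, and 19 higher and 23 lower at 0.05. Leaving out 1 library gave 1 to 6 higher and 5 to 6 lower, with 1 higher without WT library 1. DESeq2's Wald test called 339 higher and 505 lower genes.

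Replicate numbers did not pair WT with S6K1-/- libraries: deviations of same-numbered libraries correlated at 0.0412, -0.00767 and 0.0453, and not every library correlated best with its own number. With the replicate block, 241 genes were higher and 423 lower, and 2 members higher. Members under 3 counts cannot be compared at this depth.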

Other observations

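Neural crest and mesoderm share GATA, HAND or TFAP2 factors with amnion and trophoblast. Of 12 neural crest markers 8 were tested and none passed the threshold of edgeR's quasi-likelihood test, with SOX10 at -0.73 (adjusted p = 0.0143) and NGFR at 0.20 (0.0381) on the log2 scale. Of 18 mesoderm and cardiac markers 9 were tested and none passed, with a median log2 fold change of 0.0104, and HAND2, the relative of HAND1, had 1 read in 1 S6K1-/- library. With 3.96% of all genes tested past the threshold, no call among so few genes is near the background. MIXL1, a primitive streak factor, stood at 0.24 (adjusted p = 0.0449) and TNNT2, a troponin of heart muscle, at -1.65 (0.0506). TNNT2 had 16, 13 and 11 reads in WT and 7, 5 and 0 in S6K1-/- libraries, and its value lay between -2.29 and -1.11 with 1 library left out. The summed levels of the list were 122 to 134 CPM in WT and 133 to 135 in S6K1-/- libraries.

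Naive pluripotent cells also express TFAP2C. Of 17 naive markers found, 10 were tested and PRDM14 alone passed the threshold, with a median log2 fold change of -0.181 over the list. DPPA5 had 14, 17 and 17 reads in WT and 32, 29 and 35 in S6K1-/- libraries (log2 fold change 1.06, adjusted p = 0.0062, edgeR's quasi-likelihood test), without overlap between the groups. ZFP42, a zinc-finger gene that the hESC list also holds, stood at 0.17 (adjusted p = 0.00874) and went from 147 to 166 CPM on average. TFCP2L1 had the other sign, with 466, 402 and 411 reads in WT and 362, 327 and 317 in S6K1-/- libraries (-0.29, adjusted p = 0.0206, same test), and 6 of the 10 tested naive markers had a log2 fold change below 0. The summed level of the naive list was 256 to 261 CPM in WT and 281 to 289 in S6K1-/- libraries, and ZFP42 and PRDM14 carry most of that difference.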
